A study of Mus musculus with 10 samples.

Results

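The 5 input RNA libraries of a mouse ribosome profiling study were grouped by their own Wdr4 level. The libraries labelled sgWdr4-1 and cKO had less than 35 TPM of Wdr4, and the libraries labelled WT, sgWdr4-2 and ff had more. TPM gives the share of a transcript, corrected for its length, in a library total of 1000000. The 5 libraries are the input RNA of the 10 libraries in the series, which also holds 1 footprint library (mRNA stretches shielded by ribosomes) for each of the 5 conditions. WT, sgWdr4-1 and sgWdr4-2 are labelled as immortalized bone marrow-derived macrophages (iBMDM): a wild-type control and lines carrying 1 of 2 independent guide RNAs against Wdr4, delivered by lentivirus and selected with puromycin for at least a week. The iBMDM lines are described as monoclonal, so each library stands for 1 clone. The ff and cKO libraries are labelled as tumour-associated macrophages (TAM). They are described as F4/80+ cells sorted from orthotopic liver tumours of Hepa1-6 hepatoma cells. The hosts are given as Wdr4ff mice (ff) or mice with a myeloid-specific Wdr4 knockout (cKO). By that description, all TAM came from tumour-bearing animals. No label read here gives the driver of the deletion, the age of the mice or whether animals were pooled. Input RNA was polyadenylated RNA, and every condition had 1 library.

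Wdr4 is the non-catalytic partner of the methyltransferase Mettl1. Together they place 7-methylguanosine on a subset of tRNAs, which protects those tRNAs from decay and keeps codons that need them translated smoothly. Cells that meet uncharged tRNA, stalled ribosomes, misfolded protein in the endoplasmic reticulum or other stresses phosphorylate the initiation factor eIF2. General translation then falls while the transcription factor ATF4 is made, and ATF4 switches on genes for amino acid uptake and synthesis, tRNA charging and stress feedback. That programme is called the integrated stress response. Macrophages are the phagocytes of the myeloid lineage, marked by genes such as Adgre1 (the F4/80 protein), Csf1r and Ptprc.

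Wdr4 itself stood at 44.6 TPM in WT, 31.3 in sgWdr4-1 and 44.5 in sgWdr4-2, and at 39.8 in ff and 20.9 in cKO. The value in sgWdr4-1 was 70.1% of WT, that in sgWdr4-2 was 99.8% of WT, and that in cKO was 52.6% of ff. The library labelled sgWdr4-2 thus went against its label at the RNA level. As background, a guide can disrupt a protein without lowering its mRNA. The values nearest to the threshold were 31.3 TPM (sgWdr4-1) below it and 39.8 TPM (ff) above it. Since Wdr4 input TPM chose the groups, its difference is a description and carries no test, and the same holds for every gene in this contrast. Mettl1, the catalytic partner, was at 60.5, 58.9 and 58.2 TPM in WT, sgWdr4-1 and sgWdr4-2, and at 57.1 and 53.4 TPM in ff and cKO. Its libraries overlapped between the groups, and its lower minus higher Wdr4 difference was -0.06 on the log2(TPM + 1) scale. Wdr4 footprints did not follow its input: they were 13.3 TPM in WT, 24.3 in sgWdr4-1, 26.9 in sgWdr4-2, 8.51 in ff and 17.7 in cKO.

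**Figure D1:**
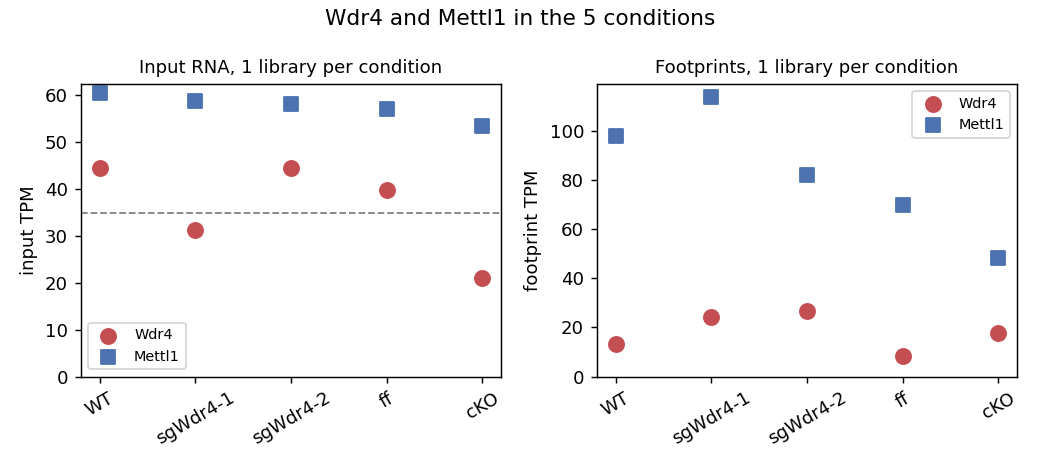
TPM of Wdr4 (circles) and Mettl1 (squares) in the input libraries (left; the dashed line is the threshold of 35 TPM) and the footprint libraries (right), 1 library per point. In input, Wdr4 lay below the line in sgWdr4-1 and cKO, while in footprints both libraries lay above their own controls.

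The cells' labels were checked against marker genes. Of 26 macrophage markers, 22 stayed below 1 TPM in all 5 inputs, and 8, among them Adgre1, were listed at 0 throughout. Only Cd14 and Lgals3 were at 5 TPM or more throughout. Of 19 fibroblast and stellate markers, 10 were at 5 TPM or more in every input library, with Col1a1 between 425 and 595 TPM and Acta2 between 2397 and 3785 TPM, in both the iBMDM and the TAM table. Of these 10, 5 were higher in both lower-Wdr4 libraries than in all others, 2 (S100a4 and Pdgfrb) were lower and 3 overlapped. The summed level of the list, to which Acta2 gave the most, was 5689 to 6864 TPM in the lower-Wdr4 and 5243 to 5286 TPM in the higher-Wdr4 libraries. The summed macrophage markers, nearly all of it Lgals3, ran from 564 to 688 and from 527 to 628 TPM. Hepatocyte and hepatoma markers were under 1 TPM for 18 of 21 genes. Their sum, mostly Apoa2, was 141 to 169 TPM in the lower-Wdr4 and 100 to 115 TPM in the higher-Wdr4 libraries. Markers of lymphocytes (15 of 16), of neutrophils and NK cells (14 of 14), and of endothelial and epithelial cells (13 of 16) were also under 1 TPM. In input RNA labelled as macrophage, Csf1r was thus at 0.291 TPM or less, Ptprc at 0.071 TPM or less, and Cd68 between 1.19 and 3.93 TPM. By most of these markers, input RNA in both tables departed from its macrophage label. The names iBMDM and TAM are used here as labels only, and the reason for the departure was not tested. The part of the other marker levels in the results was not tested. In these bulk samples, fewer cells of a type and less RNA per cell cannot be told apart.

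Of 21934 gene symbols, 8971 had a mean of at least 5 TPM over the 5 input libraries and entered. The difference is the mean log2(TPM + 1) of the 2 lower-Wdr4 libraries minus that of the 3 higher-Wdr4 libraries, and it understates changes of low genes. At least a 2-fold difference was seen for 47 genes on the higher side (0.524% of genes) and 6 on the lower side (0.0669%). When only genes with both group means at 5 TPM or more are counted, 34 and 3 of these are left. Both lower-Wdr4 libraries lay above all 3 higher-Wdr4 libraries for 3425 genes (38.2%) and below all 3 for 1427 genes (15.9%). The other 4119 genes overlapped. These shares are the background for every count below; "above" and "below" without more words mean no overlap between the groups. Rescaling the libraries to the same median turned the split between above and below from 3425 and 1427 to 2127 and 2632 genes, since the median gene was 0.08 higher in the lower-Wdr4 libraries. That shift ran with level. The median difference was 0.18 for the 1273 genes of 5 to 10 TPM and fell by steps to -0.09 for the 306 genes above 500 TPM.

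The pooled contrast mixes tables that were normalised separately, so each table's own difference stands beside it: sgWdr4-1 minus the mean of WT and sgWdr4-2 for iBMDM, and cKO minus ff for TAM. Across the 8971 genes, the robust SD (a spread set by the middle of the values) was 0.10 between WT and sgWdr4-2. It was 0.23 between WT and sgWdr4-1, 0.30 between ff and cKO, 0.19 between sgWdr4-1 and cKO, and 0.14 between WT and ff. By input RNA, sgWdr4-1 and cKO were thus nearer to each other than to the control of their own table. WT was nearer to ff, which is labelled as another cell source, than to sgWdr4-1. The sgWdr4-1 minus WT and cKO minus ff differences share no library, and across genes they had a Pearson r of 0.57 and a Spearman rho of 0.57. For sgWdr4-2 minus WT against cKO minus ff, r was 0.0004 and rho was -0.01. Genes are not independent replicates, so these are descriptions. At least a 2-fold difference in both tables was seen for 23 genes on the higher side and for 1, Zfp950, on the lower side.

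**Figure D2:**
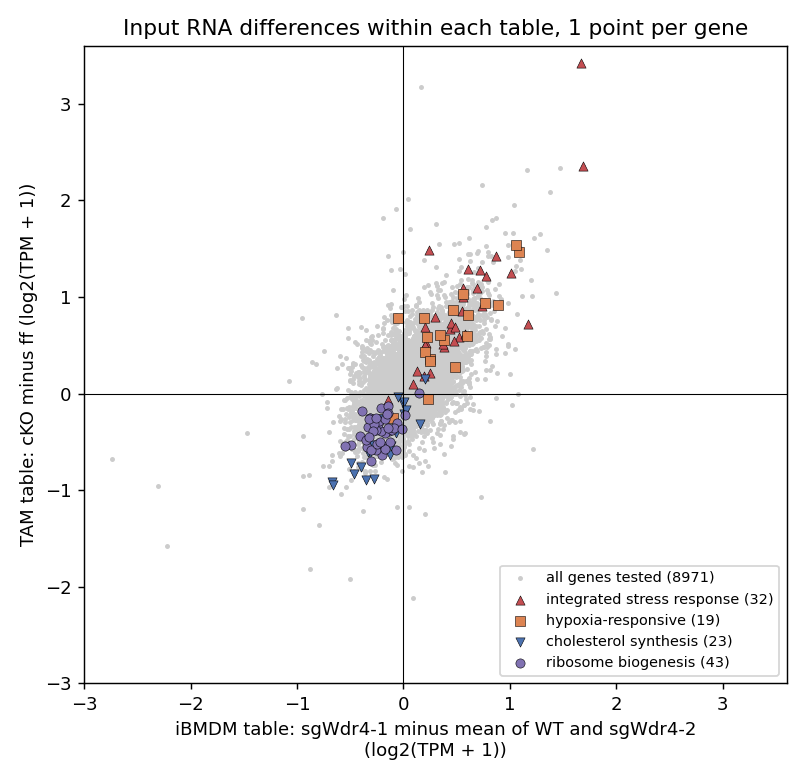
Input RNA difference in the iBMDM table (horizontal) against that in the TAM table (vertical), on the log2(TPM + 1) scale, 1 point per gene for 8971 genes, with 4 gene lists marked. Stress response and hypoxia genes lie mostly at the upper right, ribosome biogenesis and cholesterol genes at the lower left.

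A test was run only by the labels: sgWdr4-1, sgWdr4-2 and cKO against WT and ff, with the table as a term (limma, Benjamini-Hochberg adjusted p under 0.05, two-sided). It called 0 of 8971 genes higher and 0 lower (0%), and the lowest adjusted p was 0.395. With no adjustment, 854 genes had a p under 0.05. Without sgWdr4-2, limma called 1518 genes higher and 517 lower. That leaves the libraries that Wdr4 chose, with 1 residual degree of freedom, and is no independent test. Without WT it called 6 and 2. Nothing in the labels says that libraries came from separate cultures or animals for replication.

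Integrated stress response genes had the largest median difference of the pathway lists. Of its 38 members in the tables, 32 entered, and all of those were apart between the groups, 30 above and 2 below, against a background of 38.2% and 15.9%. The list's median was 0.59 (iBMDM 0.48, TAM 0.70), beside 0.08 for all genes, and -0.02 for sgWdr4-2 minus WT. Among the 31 members with both group means at 5 TPM or more, 29 were above. The list was drawn up with earlier results known, and it is no independent evidence of its direction.

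Feedback and effector genes of the response differed widely in size. Trib3, a pseudokinase that restrains ATF4, was at 6.22 TPM in WT, 6.16 in sgWdr4-2 and 7.13 in ff, against 22.2 in sgWdr4-1 and 40.6 in cKO. The 3 higher-Wdr4 libraries lay within 1 TPM of each other, and the difference was 2.05 (iBMDM 1.69, TAM 2.36). Vldlr, a lipoprotein receptor, had the largest pooled difference of all genes, 2.50, with 2.77, 1.99 and 1.83 TPM in WT, sgWdr4-2 and ff and with 9.67 and 29.3 TPM in sgWdr4-1 and cKO. It entered only through its level in the lower-Wdr4 libraries. Sesn2, which restrains mTORC1 when leucine is short, was at 11.3, 9.11 and 10.6 TPM against 21.5 and 26.4 TPM (difference 1.14). Ppp1r15a, the phosphatase subunit that reverses eIF2 phosphorylation, was at 49.0, 49.8 and 48.3 TPM against 80.2 and 104 TPM (0.88). Chac1, which degrades glutathione, was at 14.3, 15.1 and 17.0 TPM against 18.2 and 30.1 TPM, a difference of 0.57 (iBMDM 0.29, TAM 0.79), just under the list's median.

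Transcription factors of the response differed in size. Atf3 was at 8.29, 7.68 and 8.59 TPM in WT, sgWdr4-2 and ff against 14.4 in sgWdr4-1 and 21.3 in cKO (difference 1.01). Jdp2 was at 23.2, 24.8 and 23.2 TPM against 40.9 and 44.2 TPM (0.81). Ddit3, which encodes CHOP, was at 75.5, 66.2 and 84.4 TPM against 92.1 and 119 TPM (0.47). Its symbol stands on several rows of the tables, and these values come from the row with the highest mean input, so they are uncertain. These bZIP factors were above in both lower-Wdr4 libraries, by amounts that fell in that order. Atf4 mRNA was at 687, 662 and 676 TPM against 719 and 724 TPM, a difference of 0.10, close to the shift of the median gene. ATF4 is known to be controlled mainly at translation.

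Genes of amino acid supply followed by role. For amino acid synthesis, Asns (asparagine synthetase) was at 220, 230 and 238 TPM in WT, sgWdr4-2 and ff against 337 in sgWdr4-1 and 365 in cKO (0.61). Pycr1, of proline synthesis, was at 8.44, 9.95 and 13.7 TPM against 21.9 and 23.3 TPM (1.03). Pck2, the mitochondrial PEP carboxykinase, was at 27.7, 27.9 and 23.5 TPM against 46.5 and 58.3 TPM (0.96). In the serine pathway the steps differed. Psph, the last step, had a difference of 0.71 and Psat1, the step before it, one of 0.19, while Phgdh, the first step, was below, at 658, 659 and 634 TPM against 597 and 607 TPM (-0.11). Among carriers, Slc6a9 (glycine) had a difference of 1.12, Slc3a2 and Slc7a5, the chains of a leucine exchanger, 0.60 and 0.50, and Slc7a1 (arginine and lysine) 0.58. Slc38a2, a carrier of small neutral amino acids, was the other member below, at 193, 188 and 204 TPM against 161 and 164 TPM (-0.27).

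A known binding site in this response is the C/EBP-ATF element, bound by ATF4 with a C/EBP partner. Its letters TGATGNAA were searched on both strands in the 250 bases before each RefSeq gene start (GRCm38.p6). The build of the deposited tables is not given in the sources used here, and no measurement is placed at these positions. A match was found in 8 of the 27 stress response genes with a promoter in the table (29.6%), beside 162 of 7198 genes tested (2.25%). Among genes above it was 80 of 2739 (2.92%) and among genes below 14 of 1155 (1.21%). Of the 15 genes highest in both tables, 11 had a promoter and 0 of those held it, while of the 12 lowest genes 2 of 12 did (16.7%). A match is a description and not a site. Stretches from 5 of the 8 promoters are shown as examples that cover a receptor, transcription factors and enzymes; each runs 5′ to 3′ on the gene's strand, and capitals mark the match, as TGATGNAA or as its reverse complement.
Vldlr (chr19:27216770-27216889, + strand): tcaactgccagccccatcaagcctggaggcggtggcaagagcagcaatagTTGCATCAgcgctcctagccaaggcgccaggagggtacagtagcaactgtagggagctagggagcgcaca
Atf3 (chr1:191183380-191183499, - strand): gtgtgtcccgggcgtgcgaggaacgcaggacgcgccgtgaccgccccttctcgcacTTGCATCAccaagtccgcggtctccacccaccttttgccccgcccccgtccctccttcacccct
Jdp2 (chr12:85599296-85599415, + strand): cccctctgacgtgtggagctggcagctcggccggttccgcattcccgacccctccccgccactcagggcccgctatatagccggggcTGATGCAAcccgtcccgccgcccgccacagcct
Pck2 (chr14:55540107-55540226, + strand): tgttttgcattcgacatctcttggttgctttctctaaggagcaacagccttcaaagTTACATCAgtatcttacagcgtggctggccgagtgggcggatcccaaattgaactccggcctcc
Asns (chr6:7693210-7693329, - strand): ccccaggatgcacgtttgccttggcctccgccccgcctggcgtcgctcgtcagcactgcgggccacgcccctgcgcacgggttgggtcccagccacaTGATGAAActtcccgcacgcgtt
Counted from -1, the base before the start, the match began at -200 in Vldlr, -110 in Atf3, -103 in Pck2, -33 in Jdp2 and -23 in Asns. The other 3 genes with a match were Chac1, Nupr1 and Pycr1, and all 8 were above.

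Aminoacyl-tRNA synthetases, which charge tRNAs and several of which are ATF4 targets, were split. Of 20, 12 were above and 3 below, with a median of 0.19. Aars (alanine) was at 158, 161 and 167 TPM in WT, sgWdr4-2 and ff against 218 in sgWdr4-1 and 229 in cKO (0.46), and Gars (glycine) had a difference of 0.42. Kars (lysine) was below, at 366, 373 and 387 TPM against 352 and 293 TPM (-0.23), as were Farsa (-0.16) and Hars1 (-0.11). Chaperones and sensors of the endoplasmic reticulum were above for 20 of 25 members and below for 0 (median 0.37). Xbp1, whose spliced form drives the unfolded protein response, was at 45.0, 46.5 and 49.4 TPM against 77.1 and 97.5 TPM (0.87). Hspa5, the main chaperone BiP, was at 594, 560 and 599 TPM against 775 and 1057 TPM (0.63). Edem1, of the degradation of misfolded glycoproteins, had a difference of 0.61. The lectin chaperones Calr and Canx overlapped between the groups, with differences of 0.10 and 0.06.

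Hypoxia-responsive genes were above for 16 of the 19 tested members and below for 0, with a median of 0.47 (iBMDM 0.38, TAM 0.60) and -0.03 for sgWdr4-2 minus WT. Among the 17 members with both group means at 5 TPM or more, 14 were above. Bnip3, a receptor for the removal of mitochondria, was at 60.0, 60.7 and 59.6 TPM in WT, sgWdr4-2 and ff against 129 in sgWdr4-1 and 167 in cKO (1.28). Ndrg1, a stress-induced gene, was at 33.5, 33.7 and 31.1 TPM against 70.8 and 92.3 TPM (1.28). In both, the 3 higher-Wdr4 libraries lay within 3 TPM of each other. Pdk1, which restrains the use of pyruvate in mitochondria, had a difference of 0.93, and Vegfa, the angiogenic growth factor, one of 0.78. Hilpda, a lipid droplet protein also known as a hypoxia target, went the other way without separating, at 29.4, 33.6 and 32.7 TPM against 29.4 and 27.3 TPM (-0.16).

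Glycolysis genes were above for 13 of 18 members and below for 1 (median 0.30). Slc16a3, the lactate exporter, was at 17.7, 17.2 and 18.4 TPM in WT, sgWdr4-2 and ff against 38.7 in sgWdr4-1 and 46.3 in cKO (1.21). Isoforms of phosphofructokinase, the committed step, went different ways. Pfkl was at 182, 187 and 172 TPM against 314 and 305 TPM (0.77), and Pfkp had a difference of 0.88. Pfkm was below, at 29.7, 31.5 and 27.6 TPM against 25.2 and 22.9 TPM (-0.29). The glucose importer Slc2a1 had a difference of 0.64 and Aldoa (aldolase) one of 0.57, while Pkm (pyruvate kinase) overlapped at -0.03.

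The core of the hypoxia response element, ACGTG, lay in 12 of 15 hypoxia-responsive promoters (80.0%) and 10 of 18 glycolysis promoters (55.6%), beside 1936 of 7198 genes tested (26.9%), by the same search. Its letters overlap those of the E-box CACGTG. Stretches of the genes with the largest difference of each list among those with a match are shown, with the core in capitals.
Bnip3 (chr7:138909553-138909672, - strand): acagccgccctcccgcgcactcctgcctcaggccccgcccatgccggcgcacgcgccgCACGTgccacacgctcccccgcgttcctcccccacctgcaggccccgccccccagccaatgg
Slc16a3 (chr11:120948947-120949066, + strand): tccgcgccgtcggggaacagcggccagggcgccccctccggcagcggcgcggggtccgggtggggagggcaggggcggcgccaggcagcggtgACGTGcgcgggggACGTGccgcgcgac
In Bnip3 the search marked 1 stretch, as the reverse complement CACGT. With the next base it reads CACGTG, which holds ACGTG on the gene's strand too. Slc16a3 holds 2 matches.

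The 15 genes with the largest difference in both tables included Trib3, Txnip, Cdkn1a, Plau, Apoa1, Gpt2, Acsbg1, Slc16a3, Prune2, Bnip3, Ndrg1, Has2, Sema7a and Sesn2. They were ranked by the smaller of their 2 within-table differences among genes at 10 TPM or more, which ran from 1.69 for Trib3 to 1.01 for Sesn2. Txnip, which binds thioredoxin and restrains glucose uptake, was at 7.46, 7.78 and 7.57 TPM in WT, sgWdr4-2 and ff against 22.9 in sgWdr4-1 and 42.4 in cKO (1.90). Cdkn1a, the cell cycle inhibitor p21, was at 7.89, 7.64 and 7.62 TPM against 21.8 and 35.7 TPM (1.73). Plau, the urokinase-type plasminogen activator, was at 14.4, 15.8 and 17.9 TPM against 40.1 and 52.1 TPM (1.46). For all of these the sgWdr4-1 library lay between the higher-Wdr4 libraries and cKO, whereas Acsbg1, an acyl-CoA synthetase, was higher in sgWdr4-1 (40.3 TPM) than in cKO (36.1 TPM). Gpt2, a mitochondrial alanine aminotransferase, was at 10.3, 10.2 and 10.05 TPM against 25.2 and 32.7 TPM (1.41). Apoa1, an apolipoprotein made by liver cells, was at 8.31, 8.06 and 7.76 TPM against 21.3 and 26.5 TPM (1.45). It is also 1 of the 2 hepatocyte markers that entered, while Alb (albumin) was at or under 0.128 TPM in every input library. Soat2 illustrates the limit of the pooled contrast. Its pooled difference of 1.67 went with within-table differences of only 0.95 and 0.42, since its level differed between the tables. It was 1 of 2 genes with table means at least 4-fold apart.

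**Figure D3:**
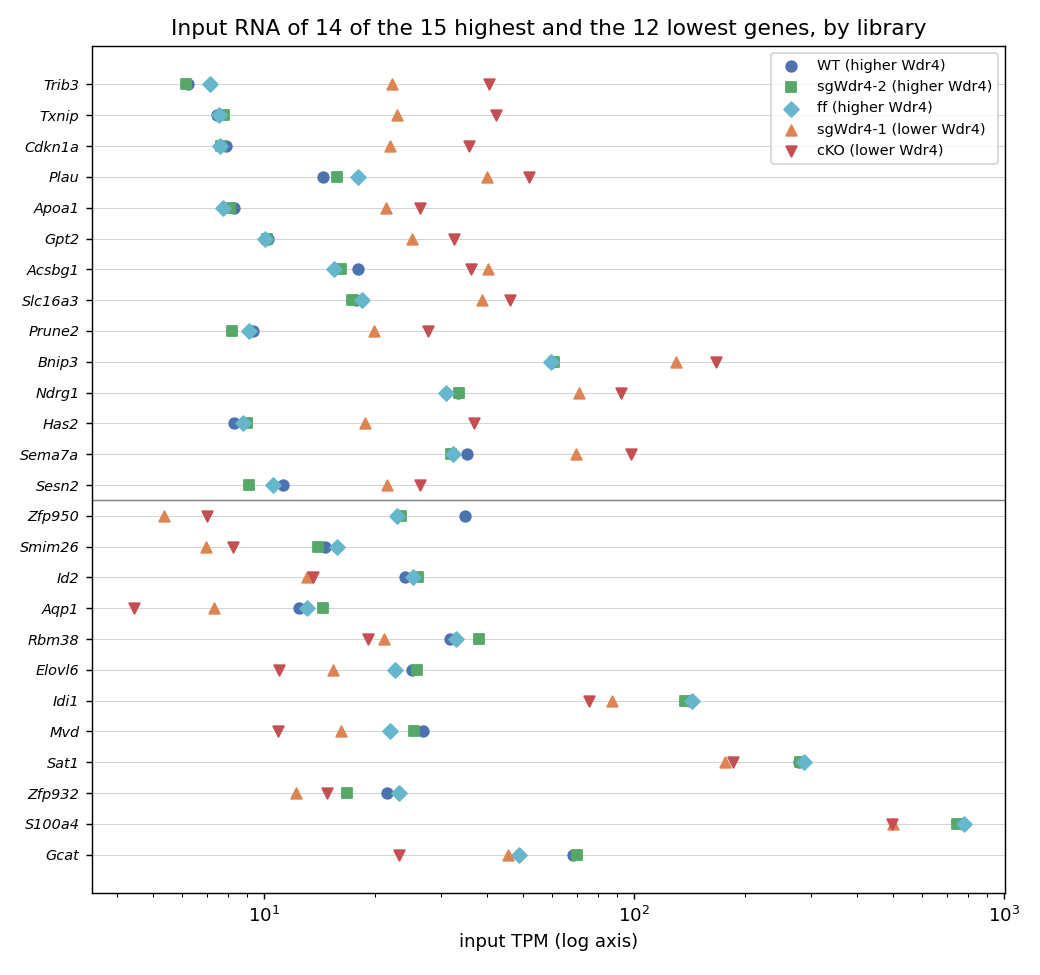
Input TPM (log axis) of 14 of the 15 highest and of the 12 lowest genes in each of the 5 libraries; triangles are the lower-Wdr4 libraries and the other symbols the higher-Wdr4 libraries. For the upper 14 genes both triangles lie to the right of the other 3 symbols, and for the lower 12 to the left, as the choice of genes required.

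Cdkn1a is a p53 target, but the p53 list as a whole was near the background: 8 of 21 members were above (38.1%) and 2 below, with a median of 0.22. Mdm2, the feedback ligase, had a difference of 0.25, and the pro-apoptotic Bax was below at -0.23, as was Sesn1 at -0.32. Trp53 mRNA overlapped between the groups.

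Immediate-early genes, which growth factor and stress signals switch on within minutes, were above for 22 of 24 members (median 0.42), and for 20 of the 22 with both group means at 5 TPM or more. Egr1 was at 20.9, 19.6 and 19.96 TPM in WT, sgWdr4-2 and ff against 37.5 in sgWdr4-1 and 43.4 in cKO (0.97). Fos was at 1.60, 2.14 and 2.04 TPM against 5.39 and 14.1 TPM (1.75), and it entered only through the lower-Wdr4 libraries, as did Klf4 (1.41). The ERK phosphatases Dusp5 and Dusp6 had differences of 0.69 and 0.64. Myc was above by 0.16 only. The CArG box, bound by serum response factor, was in 3 of 19 immediate-early promoters (15.8%) and 4 of 20 contractile ones (20%), beside 106 of 7198 (1.47%). Dusp5 is shown for its 2 adjoining matches, in capitals.
Dusp5 (chr19:53529008-53529127, + strand): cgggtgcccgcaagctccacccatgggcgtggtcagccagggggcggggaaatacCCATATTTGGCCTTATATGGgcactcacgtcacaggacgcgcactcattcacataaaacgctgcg

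Secreted and inflammatory mediators were above for 17 of the 22 tested of 40 listed and below for 0 (median 0.55, iBMDM 0.32, TAM 0.84). Of the 17 members with both group means at 5 TPM or more, 14 were above. Ptgs2, the inducible cyclooxygenase, was at 112, 114 and 114 TPM in WT, sgWdr4-2 and ff against 189 in sgWdr4-1 and 294 in cKO (1.05). It was thus higher in cKO than in sgWdr4-1 by more than the higher-Wdr4 libraries differed among themselves. The chemokine Ccl5 was at 5.29, 3.26 and 4.89 TPM against 10.1 and 14.4 TPM (1.27), and it entered only through the lower-Wdr4 libraries. Chemokines did not all do so: Ccl2 overlapped at 0.02, and Ccl7 was at 5.06, 5.62 and 6.50 TPM against 2.73 in sgWdr4-1 and 6.47 in cKO.

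Matrix and adhesion genes were mostly above. Of 28 collagens and collagen-processing enzymes, 24 were above and 1 below (median 0.37), and of 28 matrix glycoproteins and proteoglycans, 23 were above and 1 below (0.34). Has2, which makes hyaluronan, was at 8.27, 8.97 and 8.75 TPM in WT, sgWdr4-2 and ff against 18.8 in sgWdr4-1 and 36.9 in cKO (1.50). Thbs1 (thrombospondin) was at 486, 490 and 514 TPM against 844 and 1163 TPM (0.99). Col4a2, of basement membranes, had a difference of 0.71 and Col5a2, a fibrillar collagen, one of 0.06. Postn (periostin) stood apart in cKO only, at 173 TPM. It was at 67.4 TPM in WT, 59.8 in sgWdr4-1, 65.2 in sgWdr4-2 and 64.0 in ff. Vcan (versican) was below at -0.47. Integrin and focal adhesion genes were above for 21 of 23 members (0.36). Itga5, the fibronectin receptor chain, was at 147, 148 and 154 TPM against 242 and 333 TPM (0.92). Genes of the contractile actin cytoskeleton were above for 18 of 23 (0.23), with Myl9 at 0.66, and YAP-responsive genes for 14 of 19 (0.28). Ccn2, the YAP target CTGF, was at 977, 999 and 1010 TPM against 1919 and 3206 TPM (1.32). The fibroblast marker sum given above was higher in the same libraries, though 2 of its 10 tested members were below and 3 overlapped. The fibroblast list shares genes such as Acta2 with the matrix and contractile lists, and its part in them was not tested.

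Immune signalling lists had fewer tested members than the lists so far. NF-kB pathway genes were above for 11 of 13 members (median 0.23), with Tnfaip3, the feedback inhibitor A20, at 84.2, 84.2 and 87.2 TPM in WT, sgWdr4-2 and ff against 134 in sgWdr4-1 and 169 in cKO (0.81). Class I antigen presentation genes were above for 5 of 9 (median 0.45). H2-K1, a classical class I heavy chain, was at 28.3, 28.6 and 26.9 TPM against 44.6 and 74.9 TPM (1.02). Class I genes are near-identical copies, so reads may be shared among them. Interferon-induced genes were above for 7 of 12, with a median of 0.33 that came mainly from TAM (0.45, against 0.10 in iBMDM). Bst2 was at 24.2, 21.8 and 21.9 TPM in WT, sgWdr4-1 and sgWdr4-2, and at 15.4 in ff against 60.7 in cKO.

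On the lower side stood the ribosome and its assembly. Of 83 cytosolic ribosomal protein genes, 72 were below and 0 above, with a median of -0.25 (iBMDM -0.23, TAM -0.24). Their summed level was 157816 to 166824 TPM in the higher-Wdr4 libraries and 134425 to 144052 TPM in the lower-Wdr4 libraries, so as a class they took a smaller part of the fixed total. Many of these genes have processed pseudogenes, and how reads were shared is not given in the sources used here. Of 43 ribosome biogenesis genes, 39 were below and 1 above (median -0.29). Npm1, a nucleolar histone chaperone, was at 2301, 2266 and 2323 TPM in WT, sgWdr4-2 and ff against 1558 in sgWdr4-1 and 1590 in cKO (-0.54). Ncl (nucleolin) was at 395, 388 and 410 TPM against 279 and 283 TPM (-0.50). In both, the lower-Wdr4 libraries lay close to each other. Rrp1 was the single member above, at 0.09. The E-box CACGTG was in 2 of 38 of these promoters (5.26%), beside 762 of 7198 (10.6%).

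Other genes of protein production and folding went the same way with smaller differences. All 8 subunits of the TRiC chaperonin, which folds actin and tubulin, were below (median -0.19). The widest difference among them was that of Cct5, at 1020, 1022 and 1008 TPM in WT, sgWdr4-2 and ff against 889 and 794 TPM in sgWdr4-1 and cKO (-0.27). Cytosolic heat shock proteins and their partners were below for 15 of 23 and above for 5 (median -0.18). Hspe1 and Hspd1, the mitochondrial chaperonin pair kept in that list, were at -0.41 and -0.31, whereas Dnajb4 was above at 0.70. Translation initiation and elongation factors were below for 28 of 58 and above for 9 (median -0.11). Eif5a, which eases translation of proline runs, was below at -0.29, and Eif4ebp1, the cap-binding inhibitor and an ATF4 target, was above at 0.54. Mitochondrial ribosomal proteins (29 of 78 below, 6 above) and nuclear-encoded respiratory chain genes (29 of 80 below, 5 above) had medians of -0.10 and -0.09.

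tRNA modification genes, the class Wdr4 belongs to, were below for 19 of 54 members and above for 4 (median -0.12). Wdr4 itself, with a difference of -0.72, was the lowest of them and is counted there, although it chose the groups. After it came Trub1, a pseudouridine synthase, at 17.6, 18.6 and 21.6 TPM in WT, sgWdr4-2 and ff against 15.8 in sgWdr4-1 and 11.4 in cKO (-0.48). Qtrt1, which inserts queuosine, was at 31.4, 30.2 and 29.6 TPM against 23.7 and 20.2 TPM (-0.46). Trdmt1, the methyltransferase also called Dnmt2, was above, at 5.41, 5.67 and 5.87 TPM against 8.48 and 8.03 TPM (0.48).

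Cholesterol synthesis had the lowest median of the lists in the pooled contrast, -0.32, and in TAM, -0.53. In iBMDM its median was -0.20, and cytosolic ribosomal proteins (-0.23), ribosome biogenesis (-0.22) and mitochondrially encoded genes (-0.20) were slightly lower. In the pooled contrast 15 of 23 members were below and 1, Ebp, above. Along the pathway, Mvd (mevalonate decarboxylase) was at 26.9, 25.4 and 21.9 TPM in WT, sgWdr4-2 and ff against 16.1 in sgWdr4-1 and 10.9 in cKO (-0.84). Idi1 (isopentenyl diphosphate isomerase) was at 142, 137 and 143 TPM against 87.1 and 75.6 TPM (-0.79). Sqle, an oxygen-requiring and rate-limiting step, was at 186, 186 and 210 TPM against 153 and 113 TPM (-0.55). Cyp51 and Nsdhl, of the later sterol steps, were at -0.61 and -0.64. Fatty acid synthesis genes were below for 7 of 16 and above for 4 (median -0.12). Elovl6, which elongates saturated fatty acids, was at 25.2, 25.9 and 22.5 TPM against 15.3 and 11.0 TPM (-0.86). Scd2, a desaturase, was at -0.68, while Srebf1, which encodes the regulator SREBP-1, was above at 0.30. The sterol regulatory element TCACNCCAC was in 1 of 16 cholesterol promoters (6.25%), that of Hmgcs1, beside 84 of 7198 (1.17%).

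The 12 lowest genes in both tables were Zfp950, Smim26, Id2, Aqp1, Rbm38, Elovl6, Idi1, Mvd, Sat1, Zfp932, S100a4 and Gcat. Zfp950, Smim26 and Aqp1 were under 10 TPM in both lower-Wdr4 libraries and passed the filter for named genes only through the higher-Wdr4 libraries. Zfp950, a zinc finger gene, was at 34.9, 23.5 and 22.9 TPM in WT, sgWdr4-2 and ff against 5.35 in sgWdr4-1 and 7.02 in cKO (-1.95). It also varied among the higher-Wdr4 libraries, with -0.55 for sgWdr4-2 minus WT, and zinc finger genes have close copies. Id2, an inhibitor of basic helix-loop-helix factors, was at 24.1, 26.1 and 25.2 TPM against 13.1 and 13.6 TPM (-0.86). Aqp1, a water channel, was at 12.4, 14.5 and 13.0 TPM against 7.32 and 4.44 TPM (-1.09). S100a4, a calcium-binding protein in the fibroblast list, was at 777, 745 and 780 TPM against 502 and 499 TPM (-0.61). Sat1, of polyamine breakdown, was at 279, 281 and 288 TPM against 176 and 185 TPM (-0.65). Gcat, of threonine breakdown, is uncertain because its symbol stands on several rows of the tables.

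**Figure D4:**
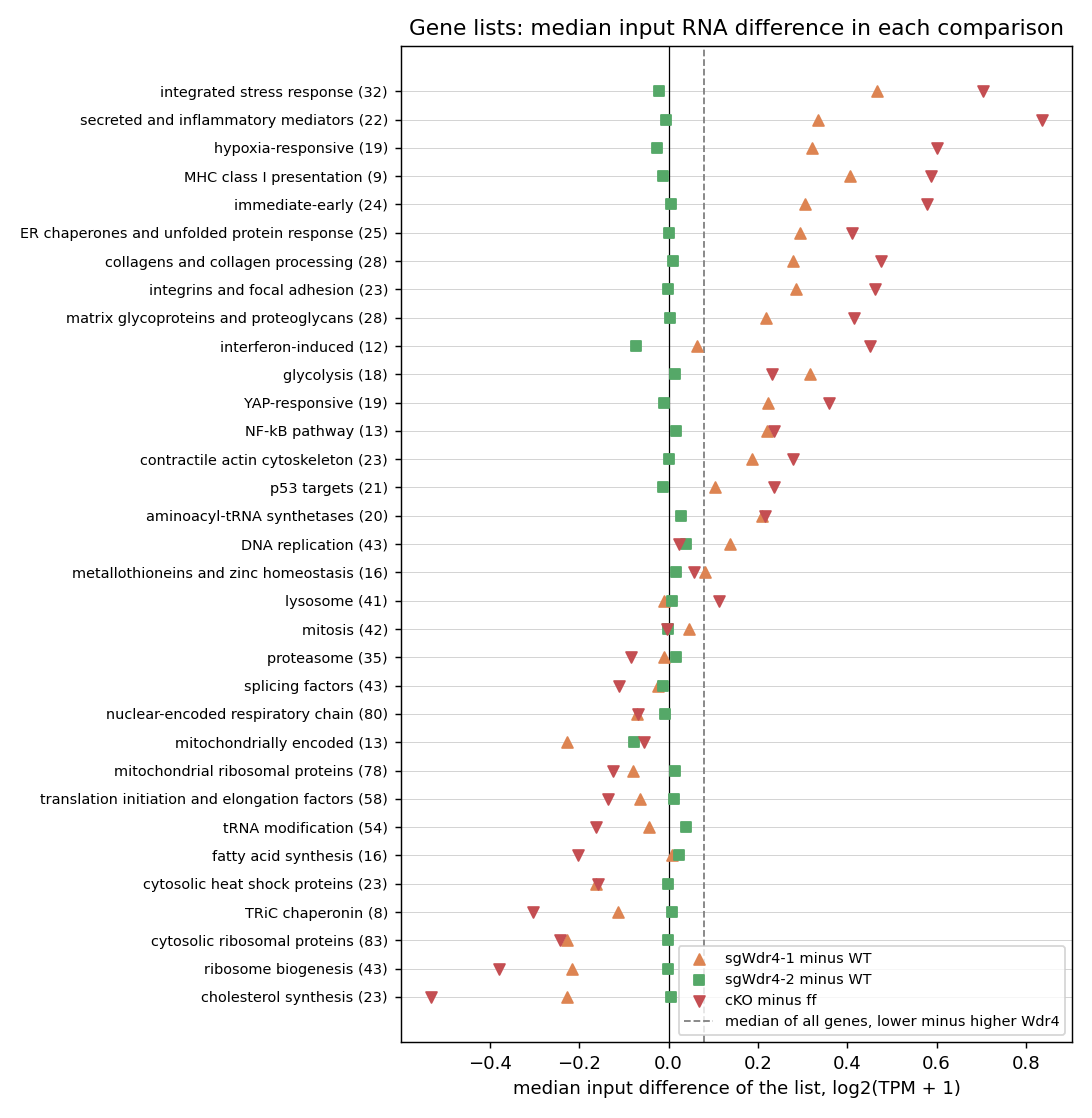
Median input RNA difference of each gene list (number of genes tested in brackets) on the log2(TPM + 1) scale for sgWdr4-1 minus WT, sgWdr4-2 minus WT and cKO minus ff, 1 library per condition. For most lists the sgWdr4-2 symbol lies near 0 while sgWdr4-1 and cKO lie on the same side of it.

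Several lists stayed near the background. DNA replication genes were above for 15 of 43 members (34.9%) and below for 3, with a median of 0.08, equal to that of all genes. Mitosis genes were above for 9 (21.4%) and below for 7 (16.7%) of 42, so their share above was smaller than the background. Metallothioneins and zinc transporters were above for 6 and below for 3 of 16, and lysosome genes above for 13 and below for 5 of 41. After rescaling to the same median, the medians of these 4 lists turned slightly negative (-0.05 to -0.02). Proteasome genes and splicing factors, by contrast, leaned to the lower side, with medians of -0.05 and -0.06. Of 35 proteasome genes, 4 were above and 12 below (34.3%). Of 43 splicing factors, 5 were above and 18 below (41.9%). The background was 38.2% above and 15.9% below. Of 13 mitochondrially encoded genes, 3 were below and 0 above.

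Footprints of the same conditions were not used to choose the groups, though they belong to the same conditions and not to further replicates. The 15 highest genes by input difference had lower footprint TPM in cKO than in ff in 15 of 15 cases. Their median was -1.27 on the log2(TPM + 1) scale, against 1.56 for input. In sgWdr4-2 against WT, footprints were also lower in 15 of 15 cases (median -1.50), with a median input difference of -0.01. In sgWdr4-1 against WT, they were higher for 7 and lower for 8 (median -0.04), with a median input difference of 1.10. The share of all genes with higher or lower footprints was not counted in these comparisons. The footprint median of all genes was -0.21 in cKO against ff, and -0.03 in sgWdr4-2 and 0.08 in sgWdr4-1 against WT. Apoa1 footprints were under 5 TPM in every library, so its values are coarse. Cdkn1a footprints, for example, were at 56.9 TPM in WT, 108 in sgWdr4-1, 10.3 in sgWdr4-2, 58.9 in ff and 8.36 in cKO. Trib3 footprints were at 14.9, 36.7 and 6.01 TPM in WT, sgWdr4-1 and sgWdr4-2, and at 17.9 and 4.49 TPM in ff and cKO. For both genes the footprints of sgWdr4-2 lay near those of cKO, while the input of sgWdr4-2 lay near that of WT. The 12 lowest genes by input difference had higher footprint TPM in cKO than in ff for 10 of 12 (median 0.72). Their footprints were higher in sgWdr4-2 than in WT for 11 of 12 (0.91) and in sgWdr4-1 than in WT for 8 of 12 (0.52). Idi1 footprints were at 119, 167 and 263 TPM in WT, sgWdr4-1 and sgWdr4-2, and at 102 and 182 TPM in ff and cKO.

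**Figure D5:**
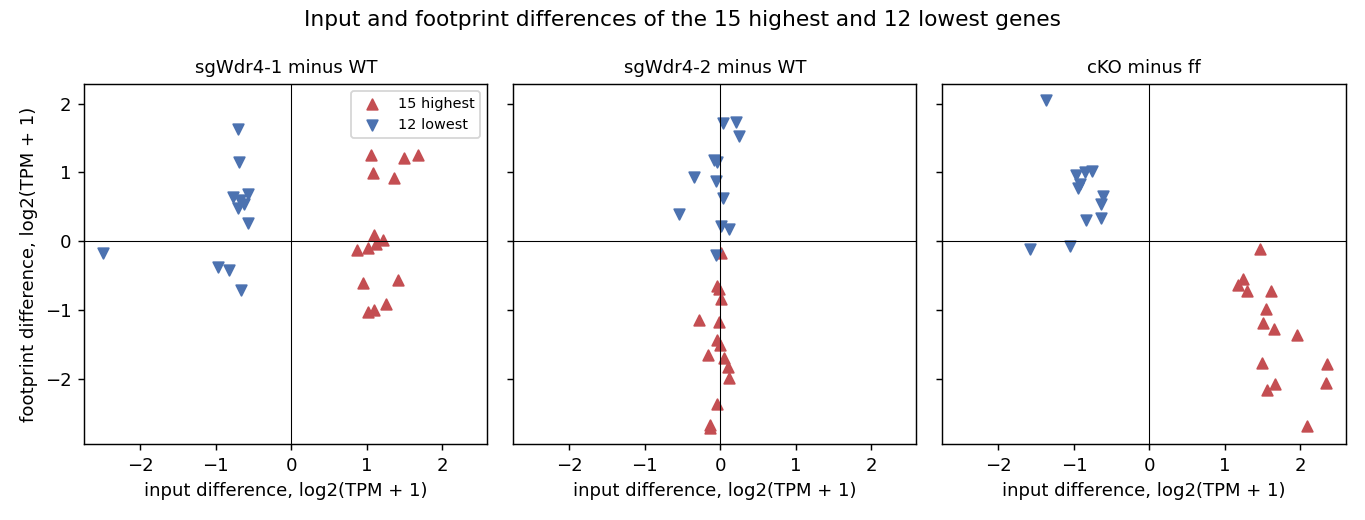
Input difference (horizontal) and footprint difference (vertical) on the log2(TPM + 1) scale for the 15 highest (upward triangles) and 12 lowest genes (downward triangles) in 3 comparisons, 1 library per condition. In cKO minus ff all 15 upward triangles lie at the lower right, and in sgWdr4-2 minus WT they lie below 0 with input near 0.

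In cKO against ff, most pathway lists had opposite signs in input and footprints. So did all genes together, with medians of 0.08 in input and -0.21 in footprints. For lists higher in input, opposite signs alone are thus the background. Immediate-early genes had medians of 0.58 in input and -0.80 in footprints, and integrin and focal adhesion genes 0.46 and -0.67. Cytosolic ribosomal proteins had -0.24 in input and 0.21 in footprints. The stress response list had a median of 0.70 in input and -0.57 in footprints over its 32 genes, and the cholesterol list one of -0.53 in input and 0.56 in footprints over 23 genes. Other lists had the sign of input, such as ribosome biogenesis (-0.38 in input, -0.26 in footprints) and TRiC (-0.30 and -0.25). The footprint medians of these 2 lists were close to the -0.21 of all genes in cKO against ff. In sgWdr4-2 against WT the footprint medians of the stress response and cholesterol lists were -0.35 and 0.59, with input medians of -0.02 and 0.00. Over the 7453 genes that also had a mean footprint level of at least 5 TPM, the footprint medians were 0.08 for sgWdr4-1, -0.03 for sgWdr4-2 and -0.21 for cKO. The sgWdr4-1 footprint library stood apart: its 13 mitochondrially encoded genes had a median of -4.13 against WT, so its footprint values for other genes carry a different total. Its part in the footprint differences of sgWdr4-1 was not tested. With 1 library per condition and kind, none of these footprint differences has a replicate check.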

How the data were processed

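The authors deposited 2 tables of TPM, one for the iBMDM and one for the TAM libraries, with 21956 rows each. Per the submitters' processing notes, fastp 0.18.0 and Bowtie2 were used. The quantifier, the build and the annotation: not given in the sources used here. Read depth cannot be had from TPM and is unknown, so intervals for counting error are left out. For 20 symbols on 42 rows, the row with the highest mean input TPM was kept. Input columns were joined on the gene symbol, log2(TPM + 1) was taken, and genes entered from a mean of 5 TPM upwards. The groups were chosen by the measured Wdr4 TPM, so that contrast carries no test. The tables were normalised separately, so levels set across them are descriptive.

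Members and lists (34 pathway and 7 marker lists) were chosen with earlier results of these data known. Named genes were the 15 highest and 12 lowest by the smaller within-table difference. They came from genes with a mean input of 10 TPM or more and no overlap between the groups. That ranking left out histones, pseudogenes, unnamed gene models and genes of the mitochondrial genome. A few genes taken by this rule or by a list are not reported here by name, but counts and medians include them. Up to 4 members per list, Wdr4, Mettl1 and markers were added; other members named were chosen after their values were seen.

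The test by label used limma 3.58.1 in R 4.3.3 with an expression trend and 2 residual degrees of freedom. It was tested on simulated data for 8971 genes: 95 of 100 genes set 2-fold apart, 100 of 100 set 4-fold apart and 5 of 8771 unchanged genes were called. The simulated noise was normal, with 1 SD shared by all genes of similar level. Spread that differs from gene to gene was not simulated. These counts therefore do not give the share of real changes that the test would find. Promoters came from RefSeq (GRCm38.p6; 7198 of the 8971 symbols matched). Python 3.11.15, numpy 2.4.6, pandas 2.3.3, scipy 1.17.1 and matplotlib 3.10.9 were used. Alternatives changed the pseudocount, the filter, the scaling, the table and each library in turn. The mean of the 2 within-table differences was added after seeing the data.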

Additional observations from a re-analysis of the deposited data

Results flagged for a closer look

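Among pathway lists with at least 5 genes tested, there were 2 in which the iBMDM and TAM tables went opposite ways. The lysosome list had a median input difference of -0.011 for sgWdr4-1 minus WT and of -0.061 for sgWdr4-1 minus sgWdr4-2, but of 0.113 for cKO minus ff. The mitosis list had medians of 0.046 and 0.087 in iBMDM and of -0.004 in TAM. With 1 library per condition, the difference between the tables was not tested, and the values of the mitosis list are close to 0.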

How the results depend on the processing

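The count of genes at least 2-fold higher and lower (47 and 6) moved with the filter, to 89 and 11 at a mean of 1 TPM and to 14 and 0 at 20 TPM. It was 30 in the iBMDM table alone and 131 and 13 in the TAM table alone. Leaving out 1 library gave 26 to 114 higher and 7 to 15 lower; the count was highest without sgWdr4-1 (114 and 15) and lowest without cKO (26 higher), and without sgWdr4-2 there were 10 lower. A pseudocount of 0.1 gave 62 and 8, and the mean of the 2 within-table differences 49 and 8.

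The counts without overlap (3425 above, 1427 below) were 2153 above at 20 TPM and 2127 and 2632 after rescaling to the same median. They were 2765 and 1860 after rescaling without histone, ribosomal protein and mitochondrially encoded genes, which turned the share above from 70.6% to 59.8%. With fewer libraries fewer genes can overlap: 2560 were below in the iBMDM table, 5497 above and 3473 below in the TAM table, and 3762 to 4571 above and 1670 to 2498 below with 1 library left out. In the main setting, the lists with most members below were cholesterol synthesis, cytosolic ribosomal proteins, ribosome biogenesis, TRiC and cytosolic heat shock proteins. The number of such lists rose to 12 after rescaling to the same median and to 8 after the other rescaling. It was 13 in the iBMDM and 14 in the TAM table, and 5 to 12 with 1 library left out (12 without sgWdr4-1). For most members above, the number was 15 to 17 with 1 library left out.

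Limma by label gave 0 to 1518 genes higher and 0 to 517 lower with 1 library left out (6 and 2 without WT, 1518 and 517 without sgWdr4-2), and 0 in the other alternatives. Of 427 list medians under alternatives, 354 moved by at most 0.1. In 6 lists 8 of the 427 changed sign; only fatty acid synthesis was 0.1 or more in size before, and it ran from -0.19 to 0.01 with 1 library left out (0.01 without cKO). Of 1989 values of named genes 1 changed sign, for Mettl1. Apart from Mettl1, the genes counted here had no overlap between the groups. Only the rescalings could therefore have changed their sign, and the other settings are no check of it. The r across genes ran from 0.526 to 0.660. No paired analysis was possible because each condition has 1 library and its number pairs no samples; the table term of limma is the only block. Unknown depth limits what low genes can show.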
